A study of Mus musculus with 10 samples.

Results

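The genes described here carry cytokine signals from receptors of the interleukin-6 (IL-6) type into the nucleus. They are the 10 genes Jak1, Jak2, Tyk2, Stat3, Stat5a, Stat5b, Socs2, Socs3, Ptpn11 and Pias3, chosen by symbol from a count table of 36115 genes, and all 10 passed the filter on low counts that left 18965 genes for testing. The counts come from RNA sequencing of whole retinas of mice aged 3 months that had received no treatment. Of the 10 libraries, 5 are labelled wild type (W1 to W5) and 5 carry the genotype label B6.129S2-Il6tm1Kopf/J, a constitutive IL-6 knockout line (K1 to K5), and both groups are labelled with a C57BL/6 background. The labels give no sex, litter or batch, and they do not say that each library is a separate animal, so the p-values rest on a spread among libraries that may be partly technical. K5 was the only library with another second index sequence in its label.

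IL-6 and its relatives bind a receptor that contains the shared subunit gp130, and the bound JAK kinases then phosphorylate the receptor and the STAT transcription factors that dock on it. Phosphorylated STAT proteins pair, enter the nucleus and switch on target genes, among them the SOCS genes, whose products shut the receptor down. In the retina this pathway is known for the response of Muller glia and photoreceptors to injury. Most of its switching happens on proteins, and read counts measure RNA only.

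Il6 itself was read first, since it is the targeted gene. It had 3 counts summed over the wild-type libraries and 22 over the libraries labelled knockout, on chromosome 5 at 30013114 to 30019981 (GRCm38). The mean level in CPM, counts scaled to a common library total, was 0.0162 ± 0.0149 for wild type and 0.127 ± 0.0524 for the labelled knockouts (SD, n = 5). The groups did not overlap, and a two-sided exact permutation test on the log2(CPM + 1) scale gave p = 0.00794, the smallest possible with 5 libraries against 5. This runs against the label. The allele is an insertion, and a count over the whole gene cannot show whether reads come from the interrupted part, so libraries are called labelled knockouts throughout.

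Total counts ran from 30433373 to 38857374 per library. Rod markers, the sign of retina, summed to 63190 ± 6270 CPM in wild type and 58310 ± 8100 CPM in the labelled knockouts, Muller glia markers to 7646 ± 1100 and 7823 ± 531 CPM, microglia markers to 65.3 ± 12.9 and 74.5 ± 2.19 CPM, and lens markers to 0.970 ± 0.164 and 1.03 ± 0.160 CPM (SD, n = 5). The ranges of the groups overlapped in each of these 4 sums, for the microglia markers through W2 alone. Over 12 lists of cell type markers, 1 of 89 tested genes was called higher and 2 lower, against 0.859% and 1.17% of all tested genes. Because whole retinas were sequenced, fewer cells of a type and less RNA per cell cannot be told apart.

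None of the 10 genes passed the test for a difference between the groups. The test was edgeR's quasi-likelihood test over all 18965 genes, with a call at a Benjamini-Hochberg adjusted p under 0.05. It called 0 of the 10, against 2.03% of all tested genes (0.859% higher and 1.17% lower in the labelled knockouts). DESeq2 and limma-voom also called 0 of the 10, against 3.07% and 1.8% of all genes each of them tested. Before adjustment, 2 of the 10, Jak1 and Jak2, had an edgeR p under 0.05, as had 13.8% of all tested genes. The CPM of the groups overlapped in all 10, while 3.48% of all tested genes did not overlap. An adjusted p under 0.05 was given to none of the 10 by the authors' deposited table, against 3.37% of the genes with a value there. A negative log2 fold change (labelled knockout over wild type) was found in 8 of the 10, with a median of -0.06 beside 0.0018 over all tested genes, of which 50.4% were positive. The median absolute log2 fold change was 0.0794, against 0.115 over all tested genes.

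**Figure D1:**
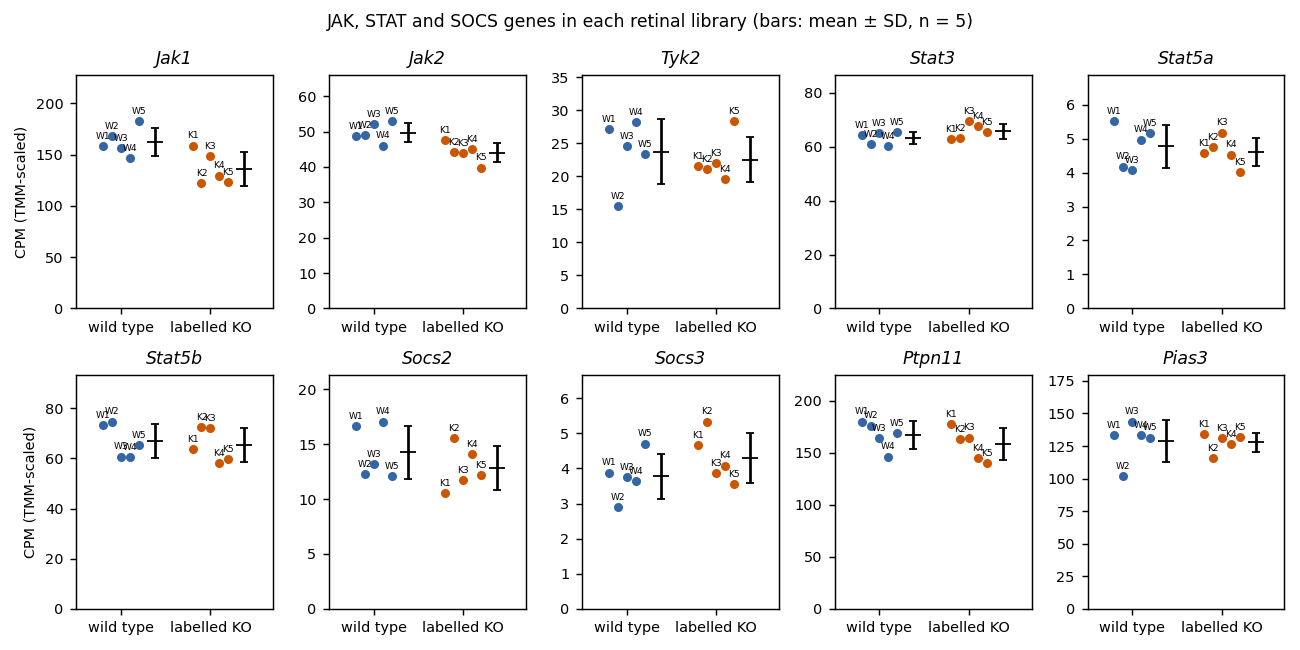
Level of each gene in every library, in TMM-scaled CPM on axes that start at 0, with wild-type libraries in blue, libraries labelled knockout in orange and bars for the mean ± SD (n = 5). The groups overlap in all 10 panels, Jak1 and Jak2 lean lower in the labelled knockouts, and W2 lies lowest in Tyk2, Socs3 and Pias3.

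The 3 kinases sit on receptor chains such as gp130 and start the signal. Jak1, the kinase most needed for gp130 signalling (chromosome 4, 101152367 to 101265282, minus strand), stood at 159, 168, 157, 146 and 183 CPM in W1 to W5 and at 159, 122, 149, 130 and 123 CPM in the labelled knockouts K1 to K5. Of the labelled knockouts, 3 lay below every wild-type library and 2, K1 and K3, lay inside the wild-type range. Its mean was 163 ± 13.6 CPM in wild type and 136 ± 16.5 CPM in the labelled knockouts (SD, n = 5), a log2 fold change of -0.25 ± 0.09 (SE) for which edgeR gave an adjusted p of 0.183 and an unadjusted p of 0.0107. The authors' deposited table gives -0.23 with an adjusted p of 0.153. The 95% interval of the fold ran from 0.739 to 0.954. Without W5 and K5, the library of each group farthest from its own group, the log2 fold change was -0.17 (edgeR adjusted p = 0.576).

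Jak2, which also serves the growth hormone, prolactin and erythropoietin receptors (chromosome 19, 29251828 to 29313080, plus strand), stood at 48.7, 49.0, 52.0, 46.0 and 52.9 CPM in wild type and at 47.5, 44.1, 43.9, 45.0 and 39.8 CPM in the labelled knockouts. K1 alone of the labelled knockouts lay inside the wild-type range, and the other 4 lay below it. The means were 49.7 ± 2.77 and 44.1 ± 2.79 CPM, a log2 fold change of -0.17 ± 0.07 (edgeR adjusted p = 0.242, unadjusted p = 0.0189), and the interval of the fold ran from 0.803 to 0.977. Without W5 and K5 the log2 fold change was -0.12 (edgeR adjusted p = 0.651). The authors' deposited table gives -0.16 with an adjusted p of 0.266.

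Tyk2, a kinase best known from interferon and interleukin-12 receptors (chromosome 9, 21104068 to 21131243, minus strand), was the most variable of the 3. It stood at 27.2, 15.5, 24.5, 28.2 and 23.3 CPM in wild type and at 21.5, 21.1, 22.0, 19.6 and 28.3 CPM in the labelled knockouts. W2 was the lowest of the 10 libraries and stood apart from the rest. K5 was the highest, with W4 and W1 of the wild type close to it. Between the groups it differed by a log2 fold change of -0.08 ± 0.14 (edgeR adjusted p = 0.863), by -0.20 without W2 (edgeR adjusted p = 0.366), by -0.03 without W1 (0.971) and by -0.01 without W4 (0.988).

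Per kilobase of merged exons, the scale on which genes can be compared, Jak1 was the main kinase RNA. Its share of the summed Jak1, Jak2 and Tyk2 level was 62.7% ± 2.41 in wild type and 60.9% ± 2.41 in the labelled knockouts (SD, n = 5). Jak2 made up 27.6% ± 0.864 and 28.4% ± 1.75, and Tyk2 made up 9.70% ± 2.26 and 10.7% ± 2.05. The shares of all 3 overlapped between the groups. The summed level of the 3 kinases was 35.6, 35.3, 35.6, 33.5 and 39.2 CPM per kilobase in the wild-type libraries W1 to W5 and 34.6, 28.7, 32.5, 29.7 and 29.1 in the labelled knockouts, and only K1 reached the wild-type range. No test was made of this sum, since its members were chosen with results known.

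Ptpn11 encodes the phosphatase SHP2, which docks on phosphorylated gp130 and links it to the RAS-MAPK branch (chromosome 5, 121130533 to 121191397, minus strand). It stood at 180, 176, 164, 146 and 169 CPM in wild type and at 177, 163, 164, 145 and 140 CPM in the labelled knockouts. Its log2 fold change was -0.08 ± 0.08 (edgeR adjusted p = 0.726), with a fold interval of 0.840 to 1.06. W4 lay with K4 and K5 at the low end, and W1 and K1 at the high end, so the spread within each group was larger than the difference between their means of 167 and 158 CPM.

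Stat3, the main transcription factor of IL-6 and gp130 (chromosome 11, 100885098 to 100939540, minus strand), was the steadiest of the 10. It stood at 64.5, 61.1, 65.1, 60.4 and 65.5 CPM in wild type and at 62.8, 63.2, 69.5, 67.7 and 65.5 CPM in the labelled knockouts. The coefficient of variation over the 10 libraries was 4.33%, and the gene-wise biological coefficient of variation was 0.0737, lower than in all but 0.559% of tested genes. Its log2 fold change was 0.05 ± 0.06 (edgeR adjusted p = 0.748). With this spread the 95% interval of the fold ran from 0.952 to 1.13, the narrowest of the 10.

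Stat5a and Stat5b are close copies that carry growth hormone, prolactin and interleukin-2 family signals. They lie beside Stat3 on chromosome 11, Stat5b at 100780731 to 100850724 on the minus strand and Stat5a at 100859351 to 100885169 on the plus strand, with 8626 bases between them, and the 3 genes together span 158810 bases. The 3' ends of Stat5a and Stat3 overlap by 72 bases that are exonic in both genes on opposite strands. The sources used here do not give how the authors' counting treated strand, so reads in those bases could not be assigned with certainty. Jak1 and Pias3 each share 4 exonic bases with a neighbour on the other strand (Raver2 and Nudt17), and Tyk2 shares 554 with an antisense gene that averaged 0.3 counts per library.

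Stat5b stood at 73.3, 74.7, 60.7, 60.4 and 65.3 CPM in wild type and at 63.6, 72.7, 72.0, 58.3 and 59.6 CPM in the labelled knockouts (log2 fold change -0.04 ± 0.09, edgeR adjusted p = 0.907). Stat5a stood at 5.51, 4.17, 4.07, 4.97 and 5.15 CPM in wild type and at 4.57, 4.74, 5.18, 4.53 and 4.02 CPM in the labelled knockouts (log2 fold change -0.05 ± 0.14, edgeR adjusted p = 0.921). High and low libraries of both genes fell in both groups. On the merged-exon scale Stat5b exceeded Stat5a by a factor of 18.3 ± 2.99 in wild type and 18.2 ± 1.22 in the labelled knockouts (SD, n = 5), and by 10.8 ± 1.76 and 10.8 ± 0.720 when each gene was divided by its longest transcript instead. The retina therefore held far more Stat5b RNA than Stat5a RNA in all 10 libraries, from 15.7 to 23.1 times on the first scale and from 9.23 to 13.6 times on the second.

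Gene starts were examined in RefSeq promoter windows (GRCm38.p6), each of 300 bases from 250 before to 50 after an annotated start. Of the 10 genes 9 had a window, 12 windows in all, and Socs2 had none. One alternative start of Stat5b and one of Stat5a, both inside the deposited gene spans, have a similar stretch just upstream. The best ungapped local match between the upstream parts of their windows was 55 bases long with 49 identical (89.1%). It is shown because these neighbouring copies stand at such different levels. The Stat5a stretch is chr11:100860418-100860472 (plus strand) and begins 66 bases before its start, and the Stat5b stretch is chr11:100822573-100822627 (minus strand) and begins 57 bases before its start. Capitals mark the bases that differ, and both are written 5′ to 3′ on the strand of the gene.
Stat5a: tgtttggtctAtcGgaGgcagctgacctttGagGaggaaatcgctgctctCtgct
Stat5b: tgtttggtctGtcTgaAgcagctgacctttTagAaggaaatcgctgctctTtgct
The counts do not say which start was used, and the best match between Stat5a and the upstream start of Stat5b was 11 bases.

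Of the inhibitors, SOCS2 mainly restrains growth hormone and STAT5 signalling, SOCS3 binds gp130 and the JAK kinases and is the classical feedback gene of STAT3, and PIAS3 is a SUMO ligase that binds STAT3 and is known in the retina from photoreceptor gene control. Socs3 (chromosome 11, 117966079 to 117970047, minus strand) had only 94 to 189 counts per library. It stood at 3.88, 2.91, 3.75, 3.65 and 4.71 CPM in wild type and at 4.66, 5.33, 3.87, 4.08 and 3.55 CPM in the labelled knockouts. W2 was lowest and K2 highest, and 4 of the 5 labelled knockouts lay within the wild-type range. Socs3 had a log2 fold change of 0.19 ± 0.16 (edgeR adjusted p = 0.677), and its interval on the log2 scale, -0.16 to 0.53, was the widest of the 10. This fold change moved with single libraries, to 0.10 without K2 (edgeR adjusted p = 0.871) and 0.11 without W2 (0.795), and it was 0.34 without both W5 and K5 (0.542).

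Socs3 was the only one of the 9 genes with a window to contain a STAT-type motif. The motifs searched were TTCNNNGAA and its longer form with 4 N between TTC and GAA, both of which read the same on either strand. At least 1 of them occurred in 14.6% of 32851 windows of this length (TTCNNNGAA in 8.3%, the longer form in 6.95%), and in 1 of the 12 windows of these genes. The Socs3 match begins 154 bases before the RefSeq start of its window. That start and the bases before it lie inside the deposited span of the gene, which reaches to 117970047. The 250 bases before that start are chr11:117969367-117969616 (minus strand), shown with the match in capitals because Socs3 is the feedback gene of the pathway.
Socs3: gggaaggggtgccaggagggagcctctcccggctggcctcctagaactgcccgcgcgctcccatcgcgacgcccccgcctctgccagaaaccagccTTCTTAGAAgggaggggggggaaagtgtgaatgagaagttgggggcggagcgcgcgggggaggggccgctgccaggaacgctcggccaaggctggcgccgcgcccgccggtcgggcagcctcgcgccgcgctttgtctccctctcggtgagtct
Among other genes with a window, the motifs were found in 5 of 23 other JAK-STAT pathway genes, 5 of 23 STAT3 targets, 3 of 9 STAT5 targets, 3 of 14 STAT5-using receptors and ligands, 2 of 11 gp130 ligands and receptors and 0 of 9 immediate early genes, against 16.6% of 27025 genes. The match describes these letters and shows no binding, and the absence of a match elsewhere says only that the letters are not in that window.

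Socs2 (chromosome 10, 95385362 to 95417180, minus strand) stood at 16.7, 12.2, 13.2, 17.1 and 12.1 CPM in wild type and at 10.5, 15.6, 11.7, 14.1 and 12.2 CPM in the labelled knockouts. The 3 highest libraries were W4, W1 and K2, and the lowest was K1. Its log2 fold change was -0.15 ± 0.13 (edgeR adjusted p = 0.664). Per kilobase of merged exons the ratio of Socs2 to Socs3 was 1.30, 1.28, 1.07, 1.42 and 0.778 in wild type and 0.685, 0.884, 0.921, 1.05 and 1.04 in the labelled knockouts. The groups overlapped through W5 alone, which K2, K3, K4 and K5 exceeded. This ratio was not tested, and neither gene passed the test by itself.

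Pias3 (chromosome 3, 96696384 to 96706070, plus strand) stood at 134, 102, 144, 133 and 131 CPM in wild type and at 134, 116, 131, 126 and 132 CPM in the labelled knockouts. All 5 labelled knockouts lay within the wild-type range, whose low end was W2. The log2 fold change of -0.01 ± 0.08 (edgeR adjusted p = 0.973) was the smallest in size of the 10.

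**Figure D2:**
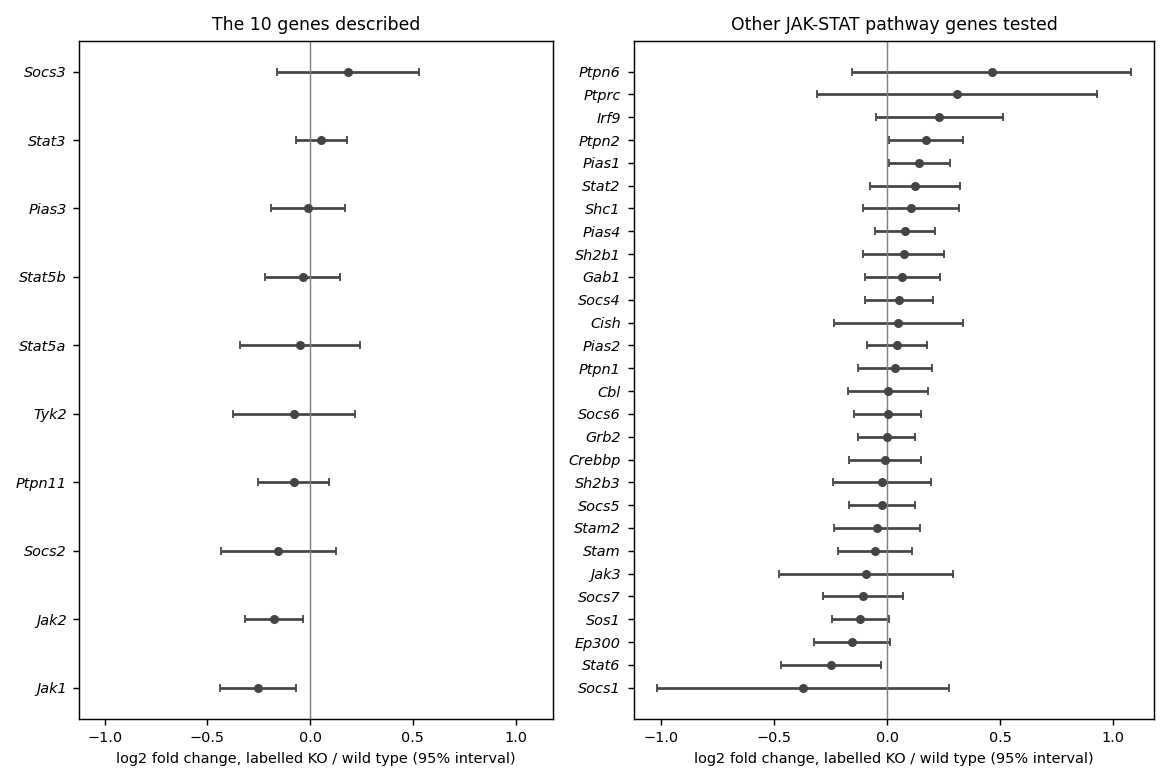
Log2 fold change of libraries labelled knockout over wild type (x axis) with 95% intervals from edgeR, for the 10 genes on the left and other tested JAK-STAT pathway genes on the right. None of those shown was called; the intervals of Jak1 and Jak2 lie below 0, and those of the other 8 genes on the left span 0.

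In order of level per kilobase of merged exons, Pias3 stood highest at 32.7 ± 2.97 CPM per kilobase over the 10 libraries (SD, n = 10), followed by Ptpn11 at 21.7 ± 1.91 and Jak1 at 20.7 ± 2.74. Stat5b stood at 11.9 ± 1.17, Jak2 at 9.32 ± 0.790, Stat3 at 6.77 ± 0.293 and Tyk2 at 3.37 ± 0.591. Socs2 at 1.42 ± 0.234, Socs3 at 1.40 ± 0.240 and Stat5a at 0.658 ± 0.0714 closed the order. The libraries of neighbouring genes overlapped for Ptpn11 and Jak1 and for Socs2 and Socs3, and for no other neighbours, although the lowest Stat5b library and the highest Jak2 library both stood at 10.52.

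The length used matters for this order. Divided by the longest transcript, Jak1 (30.5) stood above Ptpn11 (21.8) and Stat3 (10.7) above Jak2 (9.32), and Socs2 (3.19) exceeded Socs3 (1.58), in CPM per kilobase. Pias3, Stat5b, Tyk2, Socs2, Socs3 and Stat5a kept their places. So the inhibitor Pias3 and the docking phosphatase were among the most abundant RNAs of the set by either length, while the inducible SOCS genes and Stat5a were the 3 lowest.

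**Figure D3:**
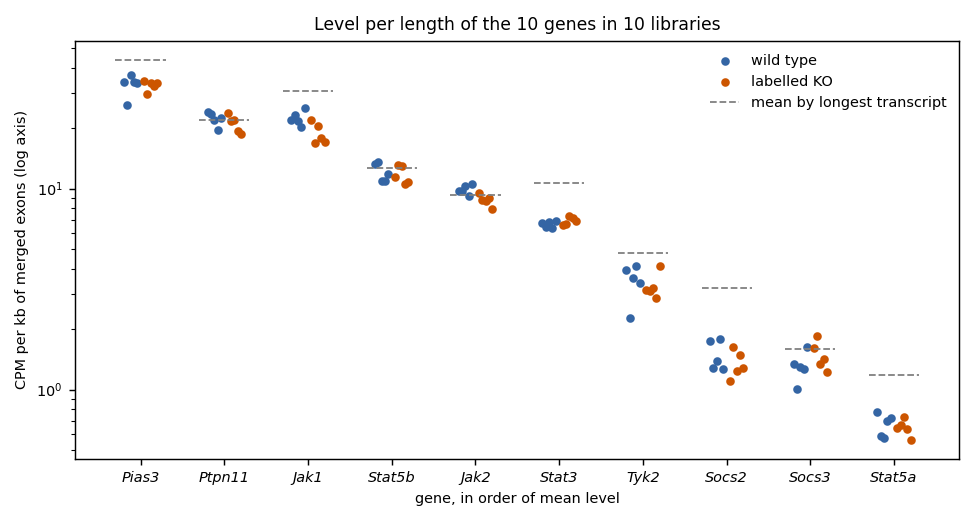
Level per kilobase of merged exons (log axis) of the 10 genes in each library, wild type in blue and labelled knockout in orange, with dashes for the mean when the longest transcript is used. Pias3 stands highest and Stat5a lowest by either length, and the groups overlap in every gene.

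Levels of the pathway genes were compared with each other across the 10 libraries in 4 relations. Stat3 and Socs3 gave Pearson r = 0.181 (permutation p = 0.618, adjusted over the 4 relations 0.865) and Spearman rho = 0.152 (permutation p = 0.681, adjusted 0.972), with r = -0.0042 after removal of the group means and 0.205 without K3 and W4, the libraries farthest from the median of Stat3. Stat5b and Socs2 gave r = 0.058 (permutation p = 0.865, adjusted 0.865) and rho = -0.0182 (p = 0.972, adjusted 0.972), with r = 0.0123 within the groups and -0.0888 without W2 and W1. No relation of a STAT gene with the SOCS gene it is known to induce was detectable at this number of libraries.

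Socs3 was also set against 2 readouts of rapid and of glial responses. With the summed level of 13 immediate early genes, which respond within minutes to stimulation or handling, it gave r = 0.0902 (permutation p = 0.801, adjusted 0.865) and rho = 0.0788 (p = 0.839, adjusted 0.972), r = 0.141 within the groups and 0.152 without K3 and W3. With Gfap, a filament gene that rises in stressed Muller glia, it gave r = 0.142 (permutation p = 0.692, adjusted 0.865) and rho = 0.309 (p = 0.39, adjusted 0.972), r = -0.08 within the groups and 0.000201 without W4 and W1.

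The genes whose log2 CPM followed a member most closely over the 10 libraries are given as a description, since with so few libraries some of the other tested genes will match any pattern. For Stat3 they were Slc35f2 (r = 0.938), Fbln2 (0.867) and Gnao1 (0.856). For Socs3 they were Vax2 (0.931), Gm26512 (0.929) and Hspb3 (0.914), and for Socs2 Tulp3 (0.931), Gm43843 (0.918) and Gm42979 (0.91).

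In a list of other JAK-STAT pathway genes, which leaves out cytokines and their receptors, no gene was called either. Of 29 tested genes, among them the other JAK, STAT, SOCS and PIAS genes and the phosphatases that act on them, 0 were called by edgeR, DESeq2 or limma-voom, and 3 reached an unadjusted edgeR p under 0.05. Their median log2 fold change was 0.03, with 17 positive and 12 negative. The 3 lowest p belonged to Stat6, the factor of interleukin-4 signalling, to Ptpn2, a phosphatase of JAK and STAT proteins, and to Pias1, a SUMO ligase of the same family as PIAS3. Stat6 had means of 9.71 ± 0.967 and 8.17 ± 0.534 CPM in wild-type and labelled knockout libraries (log2 fold change -0.25, edgeR adjusted p = 0.301). Ptpn2 stood at 55.0 ± 5.45 and 61.9 ± 4.20 CPM (0.17, 0.329). Pias1 stood at 124 ± 6.24 and 137 ± 7.32 CPM (0.14, 0.333). It was the only one of the 29 whose groups did not overlap, against 3.48% of all tested genes. Stat4, the factor of interleukin-12 signalling, was too low to be tested, with group means of 0.142 and 0.189 CPM.

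Upstream, 1 of 9 tested ligand and receptor genes of the gp130 family was called higher, against 0.859% of all tested genes. It was Lif, leukaemia inhibitory factor, which stood at 0.605, 0.402, 0.396, 0.375 and 0.385 CPM in wild type and at 0.762, 0.988, 0.640, 1.47 and 1.12 CPM in the labelled knockouts. These levels rest on only 13 to 19 counts per wild-type library and 23 to 49 per labelled knockout. Lif had a log2 fold change of 1.20 ± 0.28 (edgeR adjusted p = 0.0372), and the groups did not overlap. The call was lost with limma-voom (adjusted p = 0.0578), and when any 1 of W2, W3, W4, W5, K2, K4 or K5 was left out. Its adjusted p lay between 0.0107 and 0.158 across 18 alternatives. Lif was too low to be tested when at least 1 CPM in 5 libraries was required.

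The receptor chains that hold the kinases did not pass the test. Il6st, which encodes gp130, stood at 152, 154, 142, 128 and 145 CPM in wild type and at 153, 140, 145, 129 and 125 CPM in the labelled knockouts, an edgeR adjusted p of 0.804 with a fold interval of 0.862 to 1.07. Il6ra, the IL-6 binding chain, stood between 0.536 and 1.17 CPM in all libraries (edgeR adjusted p = 0.719), and Osmr, the oncostatin M receptor, had a log2 fold change of 0.28 (edgeR adjusted p = 0.463). Of 13 tested receptors and ligands that use STAT5, 0 were called by edgeR (2.03% of all tested genes), DESeq2 or limma-voom. Of the 13, 3 reached an unadjusted edgeR p under 0.05, against 13.8% of all tested genes, and the median log2 fold change was -0.06. The lowest p were those of Kit (log2 fold change -0.28, edgeR adjusted p = 0.294), Il3ra (-0.62, 0.321) and Insr (0.13, 0.357).

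Downstream, 2 of 27 tested STAT3 targets rose, 1 fell and 24 did not pass, while 2.03% of all tested genes were called. The 27 had a median log2 fold change of 0.13 with 19 positive, beside 50.4% of all tested genes. This list was chosen with earlier results of these data known, so its counts are a description and no test of STAT3 targets. The metallothionein genes Mt1 and Mt2, whose products bind zinc, rose by 0.55 ± 0.09 and 0.94 ± 0.17 on the log2 scale (edgeR adjusted p = 0.00474 and 0.00676). Serpina3n, an acute-phase protease inhibitor, fell by 1.88 ± 0.24 (edgeR adjusted p = 0.00044). Serpina3n stood between 14.7 and 33.1 CPM in wild type and between 4.11 and 9.30 CPM in the labelled knockouts. Metallothionein genes are also known to be induced by metals and glucocorticoids. Microglia and macrophage markers also leaned higher in the labelled knockouts. Their sum was 51.8, 86.8, 62.5, 63.5 and 62.0 CPM in W1 to W5 and ran from 72.6 to 77.6 CPM in the labelled knockouts, so that only W2 of the wild-type libraries was not below all of them. The log2 fold change was above 0 in 12 of the 14 markers (in 50.4% of all tested genes), with a median of 0.25. Of the 14, 5 had an unadjusted edgeR p under 0.05, against 13.8% of all tested genes. The groups did not overlap in 2 of them, against 3.48% of all tested genes. Only 1, the complement gene C1qc, was called higher (log2 fold change 0.77, edgeR adjusted p = 0.0342), against 0.859% of all tested genes. None of the 14 was at 0 in any library. Some other marker lists leaned by direction as well. Of 8 ganglion cell markers 7 had a log2 fold change below 0 (median -0.14), although their sums were 821.1 ± 138 CPM in wild type and 827.2 ± 90.2 CPM in the labelled knockouts. Of 8 amacrine and horizontal markers 6 were below 0 (median -0.03), and of 6 bipolar markers 5 were above 0 (median 0.03). Astrocyte markers summed to 118 ± 12.9 CPM in wild type and 101.9 ± 7.46 CPM in the labelled knockouts (SD, n = 5). By direction they did not lean, with 3 of 6 above 0, 3 below and a median log2 fold change of 0.0018. Of the 6, 1 was called lower, against 1.17% of all tested genes. Of 8 endothelial and pericyte markers, 7 had a log2 fold change above 0 and 3 an unadjusted edgeR p under 0.05. Their sums were 414.6 ± 44.5 and 382.5 ± 26.7 CPM. The part of these cell types in the differences of the STAT3 targets was not tested.

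The called targets thus moved in both directions while Stat3 and Socs3 RNA did not pass the test. Lcn2, a siderophore-binding protein, had a log2 fold change of 0.80 (edgeR adjusted p = 0.0535, DESeq2 adjusted p = 0.00415).

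Of 9 tested STAT5 targets 0 were called by edgeR (2.03% of all tested genes), DESeq2 or limma-voom. None of the 9 reached an unadjusted edgeR p under 0.05, against 13.8% of all tested genes. The median log2 fold change was -0.03, with 7 negative. Igf1, the growth factor induced by growth hormone, had a log2 fold change of -0.13 (edgeR adjusted p = 0.616), Socs1, an inhibitor of interferon signalling, -0.37 (0.646), and Bcl6, a transcriptional repressor, -0.11 (0.695). Of 12 tested immediate early genes 0 were called by edgeR, DESeq2 or limma-voom, with 3 at an unadjusted p under 0.05: Fosb (0.46, 0.338), Fosl2 (-0.42, 0.344) and Egr3 (-0.84, 0.361), given as log2 fold change and edgeR adjusted p.

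**Figure D4:**
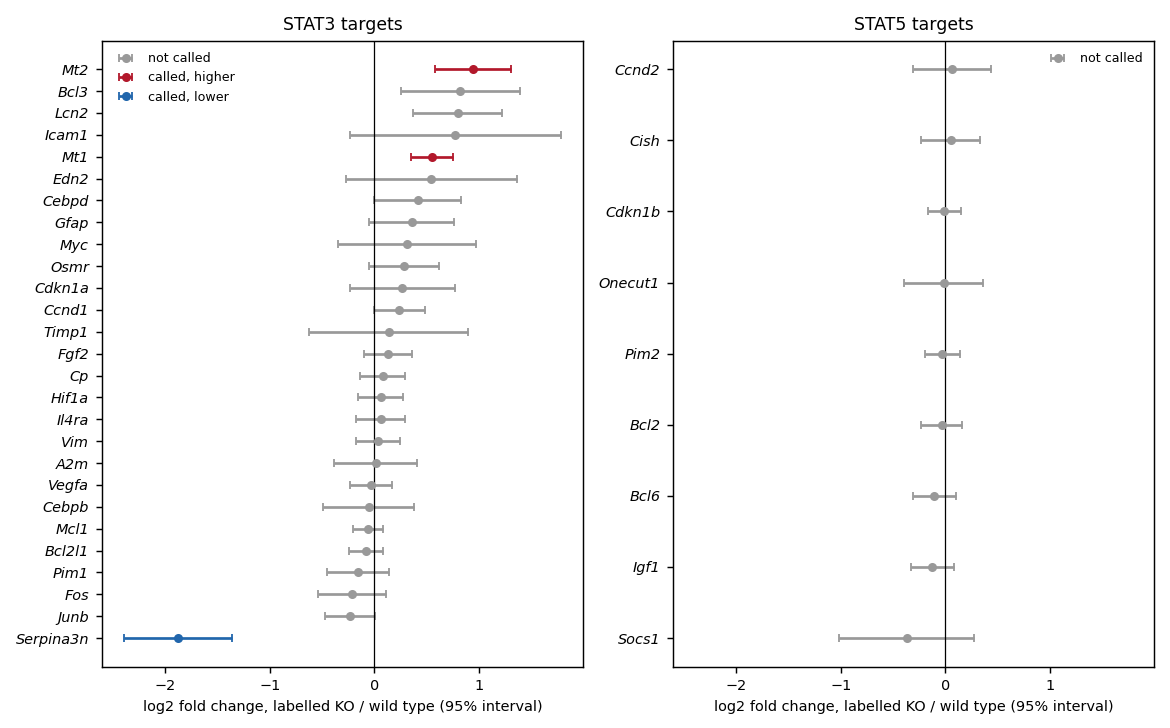
Log2 fold change of libraries labelled knockout over wild type (x axis) with 95% intervals for 27 tested STAT3 targets and 9 tested STAT5 targets. Mt1 and Mt2 were called higher (red) and Serpina3n lower (blue), and none of the STAT5 targets was called.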

How the data were processed

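The authors deposited raw read counts per gene for the 10 libraries in one table. The submitters' processing notes name STAR 2.5.3a, featureCounts 1.15.2, DESeq2 1.14, FastQC and bcl2fastq, and the build GRCm38.p5. Settings for strand, multi-mapping reads and overlapping genes are not given in the sources used. The same table carries, per the file headers, a DESeq2 comparison by the authors. Its deposited log2 fold changes and deposited p-values are printed where named, and its deposited mean signal and mark of significance were not used.

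Genes were filtered with filterByExpr (minimum count 10, total 15), scaled with TMM (factors 0.954 to 1.04) and tested with edgeR 4.0.16 in R 4.3.3, genotype being the only term. The test was checked on simulated data. DESeq2 1.42.0, limma 3.58.1 and sva 3.50.0 gave alternatives. SE is the absolute log2 fold change over the root of F. CPM are TMM-scaled. Exon lengths came from GENCODE M21 (GRCm38), where all 10 genes had the deposited coordinates. Promoters are RefSeq's (GRCm38.p6). Library names number accession order. Genes named are the 10, the targeted gene with its receptors, called genes and the 3 with the lowest adjusted p in each pathway list, and the 3 most alike genes of 3 members; Lcn2 was added after its values were seen. The 10 genes and the lists were chosen with earlier results of these data known. Values of some listed genes are not reported here, by name or in the plots, although the list counts include them.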

Additional observations from a re-analysis of the deposited data

Results flagged for a closer look

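In 4 of 62 groups of 5 libraries checked (each gene named in the text, in each genotype), 1 library stood apart from the other 4 by more than Dixon's limit, where chance flags about 1 in 20. Tyk2 stood at 28.3 CPM in K5 against 19.6 to 22.0 CPM in the other labelled knockouts. Ptpn2 stood at 69.3 CPM in K4 against 58.9 to 60.6 CPM. Pias1 stood at 113 CPM in W1 against 126 to 128 CPM in the other wild-type libraries. Lif stood at 0.605 CPM in W1 against 0.375 to 0.402 CPM, toward the labelled knockouts.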

How the results depend on the processing

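None of the 10 genes was called under any of 19 alternatives, and 182 of 190 recomputed fold changes kept their direction. The 8 that turned were all small: without W1 Stat5a was 0.0052 and Pias3 0.0012, without W2 Stat5b was 0.0073, without W3 Pias3 was 0.0336, without W4 Pias3 was 9e-04, without K2 Pias3 was 0.0218 and without K4 Stat5b was 0.0029, and without W5 and K5 together, an alternative chosen after seeing the data, Stat5a was 0.0244 (log2). Leaving out 1 library gave -0.1001 to 0.0052 for Stat5a, -0.0769 to 0.0073 for Stat5b and -0.0856 to 0.0336 for Pias3. The adjusted p of Jak1 ran from 0.0683 to 0.576 and that of Jak2 from 0.129 to 0.651.

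Over all genes, 163 were called higher and 222 lower. DESeq2 called 319 higher and 444 lower, the fit without a low-count filter 298 and 406, and 1 surrogate variable 306 and 358. Leaving out 1 library gave 71 (without K4) to 253 (without W2) higher, with 93 without K3 and 84 without K5, and 140 (without K4) to 289 lower, and leaving out W5 and K5 together gave 107 higher. The count of gp130 family genes called, 1 with edgeR, was 2 with DESeq2, 0 with limma-voom, 0 with at least 1 CPM in 5 libraries, 0 to 1 on leaving out 1 library and 0 without W5 and K5 together. The causes were not tested. No paired analysis was possible because the labels carry no replicate numbers. Socs3, with 94 to 189 counts per library, had the largest SE of the 10 genes (0.162), followed by Tyk2 (0.140).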
